A study of Mus musculus with 35 samples.

Results

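Endothelial, barrier and adhesion genes were followed as a set of 34 named genes, listed by name for known functions in brain vessels. The list was chosen with earlier results of these data known, so counts of it set beside shares of all genes are descriptive. All 34 were measured, out of 18193 genes with a probe set (a group of short probes read as 1 value) on the Affymetrix mouse genome array. Where a gene had several probe sets, the brightest on average was used, chosen apart for the surgery and the naive arrays. The labels describe RNA of brain hemispheres from male mice on the FVB background, either lacking the beta2 adrenergic receptor (knockout) or carrying it (wild type). The surgery arrays were knockout after middle cerebral artery occlusion (MCAO, an experimental ischemic stroke; 7 arrays), knockout after sham surgery (3 arrays), wild type after MCAO (7 arrays) and wild type after sham surgery (3 arrays). They were taken 24 h after surgery from the ischemic hemisphere or, in sham animals, the same side. A separate set held naive brains without surgery from knockout (7 arrays) and wild type mice (8 arrays), and was normalized apart, so its levels were never set against those of the surgery arrays. The labels give no age, do not say how the receptor gene was disrupted, and do not state whether each array is a different animal, so p-values measure the spread between arrays, which may be partly technical. Whole hemispheres mix vessels with all other brain cells, and fewer cells of a type cannot be told apart from less RNA per cell.

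The endothelium of brain vessels forms the blood-brain barrier. Its cells are sealed to each other by tight junctions (claudin, occludin and their scaffold proteins) and adherens junctions (VE-cadherin), allow little transport in vesicles, and carry transporters that bring glucose, lipids and hormones into the brain or move drugs and organic anions out of it. When inflammatory signals reach this endothelium, it displays selectins and immunoglobulin-family adhesion molecules that slow and then hold passing leukocytes. Ischemia is a known trigger of this display and of barrier leakage. Growth of vessels is governed by receptors for vascular endothelial growth factor, angiopoietins and Notch ligands.

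The data are log2 signals, so a difference of 1 is a doubling of signal. A gene was called at an adjusted p under 0.05 in limma's moderated test, with Benjamini-Hochberg adjustment over all 18193 genes. Of the 34 genes, 20 had a mean at or above that of the median gene on the surgery arrays (7.46) and 17 on the naive arrays. On the surgery arrays the lowest correlation of any array with another of its group was 0.97. The difference between 3 prime and 5 prime Gapdh control probes, a sign of RNA degradation, was 1.18 on knockout MCAO array 5 and 0.38 on array 2, and at most 0.0014 on the other surgery arrays. The same difference for actin averaged 1.01 in knockout MCAO, 1.66 in knockout sham, 0.870 in wild type MCAO and 0.929 in wild type sham arrays. With each array centred on its median, the median change of all genes in knockout mice was -0.16, against -0.0045 as deposited, and the calls over all genes were 1820 higher and 4501 lower, against 2925 and 1620. In wild type mice the centred calls were 1175 higher and 1964 lower, against 1579 and 1322 as deposited. For the difference of changes they were 416 positive and 1285 negative, against 744 and 1000. Repeated quantile normalization gave 1936 higher and 2007 lower in knockout mice, with 13 of the 34 genes higher and 1 lower. Changes below are as deposited, and those that ended under centring are named beside their values.

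After MCAO the fitted change was positive for 28 of these 34 genes in knockout mice and for 27 in wild type mice. About as many were called in each genotype at an adjusted p under 0.05. Under 0.01 there were 13 in knockout and 4 in wild type mice, where 11.9% and 7.07% of all genes were called. In knockout mice 16 of 34 rose and 1 fell, where 16.1% of all genes were called higher and 8.9% lower (25.0% in all). In wild type mice 15 rose and 2 fell, where 8.68% of all genes were called higher and 7.27% lower (15.9% in all). The MCAO arrays lay wholly above the sham arrays for 13 genes and wholly below for 2 in knockout mice, where 15.6% and 9.17% of all genes did. For wild type mice these counts were 18 and 1, where 10.6% and 9.26% of all genes did. The median change of the 34 was 0.65 in knockout mice and 0.53 in wild type mice, beside -0.0045 and 0.05 for all genes. A total of 11 genes were called higher in both genotypes, namely Icam1, Cdh5, Pecam1, Vwf, Emcn, Cav1, Ets1, Robo4, Icam2, Esam and Egfl7, and Slc22a8 was called lower in both. The knockout and wild type comparisons share no arrays, but 1 fit estimated the spread for both. The share of all genes called in both genotypes was not counted, so the overlap is a description.

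**Figure D1:**
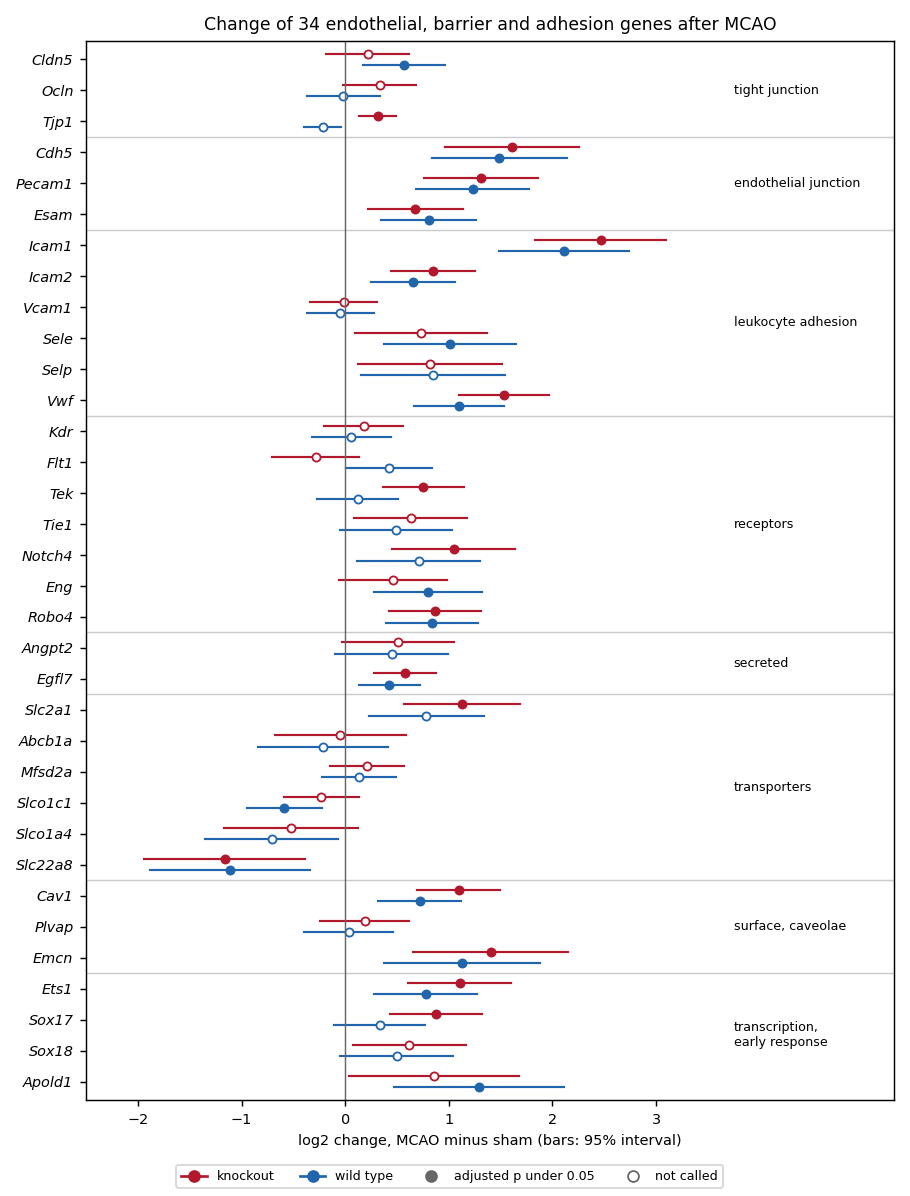
Log2 change after MCAO relative to sham for each of the 34 genes, grouped by role, with knockout (red) above wild type (blue) in each row; bars are 95% intervals of the limma fit and filled points are called at an adjusted p under 0.05. Icam1 has the largest change in both genotypes (2.46 in knockout and 2.11 in wild type mice), and Slc22a8 lies furthest to the left in both (-1.16 and -1.11).

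The adhesion molecules for leukocytes held the largest change. Icam1 codes for the ligand to which the beta2 integrins of neutrophils and monocytes bind, and like Sele it is a textbook target of the transcription factor NF-kB. The promoters of Icam1, Sele and Selp are shown because they belong to the adhesion genes whose values follow. They are the 250 bases before the annotated start in RefSeq on GRCm38.p6, all on the plus strand: chr9:21015690-21015939 for Icam1, chr1:164047984-164048233 for Sele and chr1:164115014-164115263 for Selp. Capitals mark matches on either strand to GGNNNTTCC, letters close to those NF-kB binds.
Icam1: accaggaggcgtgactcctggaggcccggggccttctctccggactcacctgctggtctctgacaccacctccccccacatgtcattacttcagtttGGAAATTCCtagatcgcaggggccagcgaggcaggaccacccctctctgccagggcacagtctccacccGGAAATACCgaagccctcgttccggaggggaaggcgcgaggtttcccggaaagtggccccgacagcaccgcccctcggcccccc
Sele: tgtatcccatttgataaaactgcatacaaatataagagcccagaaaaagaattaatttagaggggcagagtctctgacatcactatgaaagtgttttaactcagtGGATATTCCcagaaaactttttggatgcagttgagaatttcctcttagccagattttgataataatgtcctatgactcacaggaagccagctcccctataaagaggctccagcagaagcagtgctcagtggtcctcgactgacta
Selp: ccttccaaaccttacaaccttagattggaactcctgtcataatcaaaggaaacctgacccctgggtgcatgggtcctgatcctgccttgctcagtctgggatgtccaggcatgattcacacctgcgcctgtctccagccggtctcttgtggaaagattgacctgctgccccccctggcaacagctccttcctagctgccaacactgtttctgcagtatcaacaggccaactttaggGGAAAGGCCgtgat
A promoter was listed for 23 of the 34 genes, and 7 of these 23 held a match (Icam1, Sele, Selp, Notch4, Eng, Egfl7 and Apold1), beside 15.7% of 32851 promoters of the same length. A second motif, AGGAAG, the core bound by ETS factors such as Ets1, was found in 13 of the 23, beside 29.5% of all. The Sele and Selp promoters hold letters of both kinds, and the Sele window precedes a start that lies inside the gene's RefSeq span. The 23 genes had 27 windows, and a gene counted if any of its windows matched. The shares of all promoters count single windows, so the measures are not quite alike. A match is a description of the sequence and does not show that a factor binds there.

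Icam1 signals in knockout mice lay between 6.57 and 8.30 with a median of 7.80 after MCAO, against 5.55, 4.58 and 4.88 after sham surgery. The wild type signals lay between 7.42 and 8.13 with a median of 7.72 after MCAO, against 5.71, 6.03 and 5.21 after sham surgery. Every MCAO array was above every sham array of its genotype. The change was 2.46 in knockout mice (SE 0.30, adjusted p = 1.12e-05), a 5.52-fold rise, and 2.11 in wild type mice (SE 0.30, adjusted p = 9e-05), a 4.32-fold rise. It was called in all 20 fits that left out 1 surgery array.

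Vwf codes for von Willebrand factor, the clotting protein that endothelial cells store together with P-selectin. Its signals in knockout mice ranged from 8.23 to 9.38 after MCAO (median 8.42), against 6.81, 7.14 and 7.29 after sham surgery. Wild type arrays ranged from 8.24 to 8.79 after MCAO (median 8.56), against 7.61, 7.59 and 7.03 after sham surgery. The groups did not overlap in either genotype. Vwf rose by 1.53 in knockout mice (SE 0.21, adjusted p = 3.48e-05) and by 1.10 in wild type mice (SE 0.21, adjusted p = 0.00122), and it was called in every leave-one-out fit. Icam2, a ligand for the same integrins that resting endothelium already carries, rose by 0.85 in knockout mice (SE 0.20, adjusted p = 0.00362) and by 0.65 in wild type mice (SE 0.20, adjusted p = 0.0267), and its groups did not overlap. The wild type call of Icam2 was lost without sham array 1 or 3.

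The selectins, on which leukocytes first roll, varied among the knockout MCAO arrays. Sele (E-selectin) read 5.55, 4.17, 5.17, 5.41, 4.07, 5.22 and 4.11 on knockout MCAO arrays 1 to 7, against 4.07, 3.99 and 4.18 on the knockout sham arrays. Arrays 1, 3, 4 and 6 lay well above the sham arrays, while arrays 2, 5 and 7 lay between 4.07 and 4.17, within the sham range. Wild type Sele signals ran from 4.23 to 5.48 with a median of 4.84 after MCAO, against 4.01, 4.15 and 3.73 after sham surgery, without overlap. Sele rose by 1.02 in wild type mice (SE 0.31, adjusted p = 0.028), and in knockout mice the change was 0.73 (SE 0.31, adjusted p = 0.0825). The Sele call was lost without wild type sham array 1, 2 or 3, and under repeated quantile normalization (adjusted p = 0.0632).

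Selp (P-selectin) showed the same arrays low and high. It read 6.85, 6.16, 7.70, 8.07, 6.04, 7.22 and 6.06 on knockout MCAO arrays 1 to 7, against 5.88, 6.03 and 6.24 on knockout sham arrays. Arrays 2, 5 and 7 again overlapped the sham arrays and the other MCAO arrays did not. Its change was 0.82 (SE 0.33, adjusted p = 0.0763) in knockout mice and 0.85 (SE 0.33, adjusted p = 0.0898) in wild type mice, so it was called in neither, although the wild type groups did not overlap (6.31 to 7.01 after MCAO, against 5.64, 5.67 and 6.17 after sham surgery). Without knockout MCAO array 2, 5 or 7, the arrays lowest for it, Selp was called higher in knockout mice, at changes of 0.94, 0.96 and 0.96. Leaving out a low MCAO array raises the change by construction, so these calls are no support. A further Selp probe set, tested like every other further probe set in a fit over all named probe sets, was called in wild type mice (0.71, adjusted p = 0.0216) and was at 0.10 in knockout mice (adjusted p = 0.743).

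Vcam1, the ligand of integrin alpha4 beta1 on lymphocytes and monocytes, was called in neither genotype. Its change was -0.01 (95% interval -0.34 to 0.31) in knockout mice and -0.04 (-0.37 to 0.28) in wild type mice. Vcam1 signals were 7.77 to 8.58 after MCAO, against 8.13, 8.47 and 8.36 after sham surgery in knockout mice, and the groups overlapped. Of its other probe sets, 1 gave 0.58 in knockout mice (adjusted p = 0.0733) and -0.16 in wild type mice (adjusted p = 0.669).

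**Figure D2:**
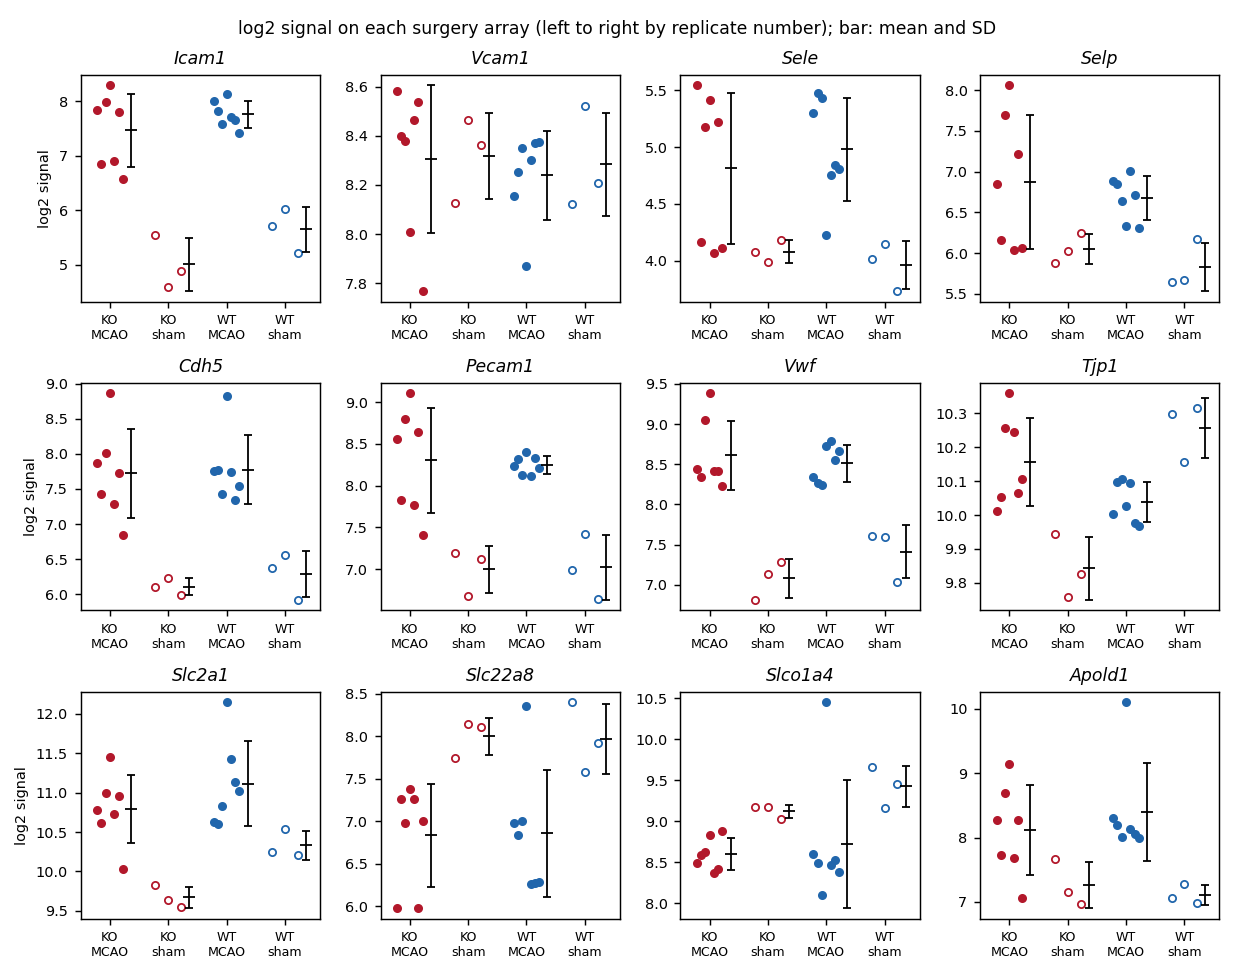
Log2 signal of 12 of the genes on every surgery array, ordered by replicate number within each group (KO, knockout; WT, wild type); filled points are MCAO and open points sham arrays, and the black marks are the mean and SD. Icam1, Pecam1 and Vwf separate MCAO from sham arrays in both genotypes, Sele and Selp split among the knockout MCAO arrays, and 1 wild type MCAO array stands high for Cdh5, Slc22a8, Slco1a4 and Apold1.

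All 3 genes of the endothelial junction rose in both genotypes. Cdh5 codes for VE-cadherin, the adhesion protein that endothelial cells share at their contacts. Its signals in knockout mice ranged from 6.85 to 8.86 after MCAO (median 7.73), against 6.10, 6.24 and 5.99 after sham surgery. The wild type signals ranged from 7.35 to 8.82 after MCAO (median 7.74), against 6.37, 6.55 and 5.92 after sham surgery. No MCAO array overlapped the sham arrays of its genotype. Cdh5 rose by 1.61 in knockout mice (SE 0.31, adjusted p = 0.000952) and by 1.49 in wild type mice (SE 0.31, adjusted p = 0.00268), while its other probe set was not called (-0.09 and 0.46, adjusted p = 0.792 and 0.169).

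Pecam1, an adhesion protein at the same contacts that leukocytes use while they cross, is also carried by platelets and leukocytes. It ranged from 7.41 to 9.11 after MCAO (median 8.56), against 7.19, 6.68 and 7.12 after sham surgery in knockout mice. In wild type mice the MCAO arrays were closer together, at 8.12 to 8.40 (median 8.24), against 7.00, 7.42 and 6.65 after sham surgery. Neither pair of groups overlapped. The rise was 1.31 (SE 0.26, adjusted p = 0.00131) in knockout and 1.23 (SE 0.26, adjusted p = 0.00325) in wild type mice, and Pecam1, like Cdh5, was called in every leave-one-out fit.

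Esam, an immunoglobulin-family adhesion molecule of endothelial tight junctions, rose in both, by 0.68 in knockout mice (SE 0.22, adjusted p = 0.0305) and 0.80 in wild type mice (SE 0.22, adjusted p = 0.0172). In knockout mice MCAO arrays 2, 5 and 7 (8.54, 8.58 and 8.52) lay at the level of the highest sham array (8.55), so the groups overlapped. The knockout call of Esam was lost without MCAO array 3 or 4 or any sham array, under centring on the median (adjusted p = 0.066) and under repeated quantile normalization. Its wild type call was lost without sham array 1 or 3.

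The 3 tight junction genes had changes between -0.22 and 0.57. Cldn5, the main claudin of brain endothelium, read 9.19 to 9.97 after MCAO (median 9.83), against 9.69, 9.29 and 9.34 after sham surgery in knockout mice. Wild type arrays read 9.59 to 10.63 after MCAO (median 10.20), against 9.37, 9.76 and 9.48 after sham surgery, with overlap in both genotypes. Cldn5 rose by 0.57 in wild type mice (SE 0.19, adjusted p = 0.0484) and changed by 0.22 in knockout mice (SE 0.19, adjusted p = 0.418). The wild type call was lost in 12 of the 20 leave-one-out fits and under centring (adjusted p = 0.0831). Ocln, the tight junction protein occludin, was called in neither genotype (0.33, adjusted p = 0.147, and -0.02, adjusted p = 0.957).

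Tjp1, which codes for the scaffold protein ZO-1 beneath both kinds of junction, was the gene whose change differed between the genotypes. It read 10.01, 10.05, 10.26, 10.36, 10.25, 10.07 and 10.11 on the knockout MCAO arrays, against 9.94, 9.76 and 9.83 on the knockout sham arrays. Signals of wild type mice were 9.97 to 10.11 after MCAO (median 10.03), against 10.30, 10.16 and 10.31 after sham surgery. In knockout mice all MCAO arrays were above the sham arrays, and in wild type mice all were below them. Tjp1 rose by 0.31 in knockout mice (SE 0.09, adjusted p = 0.0114) and changed by -0.22 in wild type mice (SE 0.09, adjusted p = 0.0889).

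The difference of the Tjp1 changes, knockout minus wild type, was 0.53 (SE 0.12, adjusted p = 0.0186). It was the 1 call among the 34 genes, where 4.09% of all genes were called with a positive and 5.5% with a negative difference (9.59% in all). Tjp1 was also the 1 gene called between the sham groups, at -0.41 in knockout relative to wild type (SE 0.10, adjusted p = 0.0273), where 3.52% of all genes were called higher and 2.53% lower (6.05% in all). That call ended without any 1 of the 3 wild type sham arrays or without knockout sham array 2 or 3. After MCAO the genotypes were at 10.16 ± 0.13 in knockout and 10.04 ± 0.06 in wild type mice (SD, n = 7 each), a difference of 0.12 (adjusted p = 0.355). The difference of changes was lost when wild type sham array 1 (adjusted p = 0.0578), knockout sham array 2 (0.0558) or array 3 (0.0754) was dropped, with the actin difference as a covariate (0.0624), or after repeated quantile normalization (0.26, adjusted p = 0.169). The knockout change was not called without knockout sham array 2 or 3 (adjusted p = 0.0784 and 0.0536), and was 0.16 under centring (adjusted p = 0.132) and the wild type change -0.27 (adjusted p = 0.0235).

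For the remaining genes the knockout and wild type changes were not called different, including those called in 1 genotype only. At an unadjusted p under 0.05, 3 of 34 differed: Tjp1, Tek (0.63, adjusted p = 0.112) and Flt1 (-0.71, adjusted p = 0.0983). Over all genes 31.5% did. Flt1, a receptor for vascular endothelial growth factor that also acts as a decoy, read 8.45 to 8.92 after MCAO, against 9.01, 8.82 and 9.10 after sham surgery in knockout mice. Wild type signals were 8.91 to 9.22 on 6 MCAO arrays and 10.24 on array 4, against 8.59, 8.98 and 8.87 after sham surgery. Without wild type MCAO array 4 the Flt1 difference was -0.54 and was called (adjusted p = 0.0472). Leaving out that array, the highest of its group, narrows the spread by construction. The other 3 probe sets of Flt1 on the array were not called in either genotype. The set used for the naive arrays gave 0.51 in knockout and 0.27 in wild type mice, a difference of 0.24 (adjusted p = 0.695). The remaining sets gave differences of -0.36 and -0.45, so the sign depended on the probe set.

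Among the receptors and secreted factors of vessel growth, Robo4 and Egfl7 rose in both genotypes. Robo4, a receptor that steadies the endothelium, read 6.26 to 7.38 after MCAO (median 6.95), against 6.26, 5.78 and 5.77 after sham surgery in knockout mice, where array 7 met the highest sham array. Wild type arrays read 6.62 to 7.61 after MCAO (median 6.75), against 5.91, 6.26 and 5.96 after sham surgery, without overlap. Its change was 0.87 (SE 0.21, adjusted p = 0.00567) in knockout and 0.84 (SE 0.21, adjusted p = 0.0106) in wild type mice, and without wild type sham array 1 or 3 Robo4 was no longer called there (adjusted p = 0.0668 and 0.0524). Egfl7, a factor that endothelial cells secrete into their matrix, rose by 0.58 in knockout mice (SE 0.14, adjusted p = 0.00627) and by 0.43 in wild type mice (SE 0.14, adjusted p = 0.0464), with no overlap in either. The Egfl7 call in wild type mice was lost in 11 of 20 leave-one-out fits and under centring (adjusted p = 0.0648).

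Tek, the receptor for the angiopoietins also called Tie2, read 7.32 to 8.45 after MCAO (median 7.83), against 7.07, 7.15 and 7.10 after sham surgery in knockout mice, without overlap. It rose by 0.75 in knockout mice (SE 0.19, adjusted p = 0.00649) and changed by 0.12 in wild type mice (95% interval -0.27 to 0.51). Notch4, a Notch receptor of endothelium, rose by 1.05 in knockout mice (SE 0.29, adjusted p = 0.0117), where array 7 (5.91) overlapped the sham arrays (6.31, 6.05 and 5.86), and changed by 0.71 in wild type mice (adjusted p = 0.0978). Without knockout sham array 3 Notch4 was not called (adjusted p = 0.0727). Its other 2 probe sets were not called, at -0.17 and -0.10 in knockout mice. Eng, the co-receptor endoglin for transforming growth factor beta, rose by 0.80 in wild type mice (SE 0.25, adjusted p = 0.0329) and changed by 0.46 in knockout mice (adjusted p = 0.178), while its further probe set was called in both (0.82, adjusted p = 0.0366, and 1.20, adjusted p = 0.00565). Its call for the first set was lost without any 1 of the 3 wild type sham arrays.

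The main receptor for vascular endothelial growth factor, Kdr, was called in neither genotype (0.18, 95% interval -0.20 to 0.56, in knockout and 0.06, -0.32 to 0.44, in wild type mice). Tie1, an orphan relative of Tek, gave 0.63 (adjusted p = 0.0793) and 0.49 (adjusted p = 0.207). Angpt2, the angiopoietin that activated endothelium releases, gave 0.51 (adjusted p = 0.152) and 0.45 (adjusted p = 0.247), with wild type sham array 2 at 7.99 beside 6.56 and 6.66 on the others. Without that array Angpt2 was called in wild type mice (0.91, adjusted p = 0.0183). Leaving out a high sham array raises the change by construction, so that call is no support.

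The transporters divided. Slc2a1 codes for GLUT1, the glucose transporter of the barrier, and is also present in astrocytes. It read 10.03 to 11.46 after MCAO (median 10.78), against 9.82, 9.63 and 9.55 after sham surgery in knockout mice. Signals of wild type mice were 10.60 to 12.15 after MCAO (median 11.02), against 10.25, 10.54 and 10.20 after sham surgery. The groups did not overlap in either genotype. Slc2a1 rose by 1.13 in knockout mice (SE 0.27, adjusted p = 0.00458) and changed by 0.78 in wild type mice (SE 0.27, adjusted p = 0.0505). The wild type change was called in 5 of 20 leave-one-out fits. The other Slc2a1 probe sets were called higher in both genotypes, at 1.07 and 0.76 in knockout and 0.83 and 0.72 in wild type mice.

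Slc22a8 codes for the organic anion transporter OAT3, which clears anions from the brain, and it is also found in choroid plexus. It was the 1 gene of the 34 called lower in both genotypes. It read 5.98, 7.27, 6.98, 7.38, 7.26, 5.97 and 7.00 on the knockout MCAO arrays, against 7.75, 8.14 and 8.10 on the knockout sham arrays. Every knockout MCAO array was below every sham array, with arrays 1 and 6 the lowest. In wild type mice arrays 1 to 7 read 6.97, 6.83, 7.00, 8.36, 6.26, 6.28 and 6.28 after MCAO, against 8.40, 7.58 and 7.92 after sham surgery. Array 4 alone reached the sham range.

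Slc22a8 fell by 1.16 in knockout mice (SE 0.37, adjusted p = 0.0272) and by 1.11 in wild type mice (SE 0.37, adjusted p = 0.0458). Both calls depended on single arrays. Leaving out knockout sham array 2 or 3 ended the knockout call (adjusted p = 0.104 each), and the wild type call was lost in 13 of 20 leave-one-out fits. It was stronger without wild type MCAO array 4 (-1.36, adjusted p = 0.00349), which follows by construction from the high value of that array. A further probe set was called lower in both genotypes (-0.90, adjusted p = 0.00848, and -0.93, adjusted p = 0.0106). Of 8 choroid plexus markers 0 were called in either direction in either genotype by limma, where 25.0% and 15.9% of all genes were. Their median changes were 0.44 in knockout and 0.20 in wild type mice. Their mean level was 6.53 to 7.75 in knockout MCAO, 6.87 to 7.14 in knockout sham, 6.73 to 7.94 in wild type MCAO and 6.92 to 7.56 in wild type sham arrays. Repeated quantile normalization ended the wild type calls of Slc22a8 (adjusted p = 0.0567), Slco1c1 (0.0892), Emcn (0.0569) and Icam2 (0.0505). It also ended the knockout call of Egfl7 (0.0638), and the actin covariate ended the knockout call of Slc22a8 (0.0507). Fits to the compared arrays alone ended the wild type calls of Slc22a8 (0.0638) and Slco1c1 (0.0869). Another variance prior also ended the wild type call of Slc22a8 (0.0588).

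Slco1c1, the transporter of thyroxine, fell by 0.59 in wild type mice (SE 0.17, adjusted p = 0.0254) and changed by -0.23 in knockout mice (adjusted p = 0.335). The wild type call was lost without any 1 of the 3 wild type sham arrays. Slco1a4, a transporter of organic anions and drugs, turned on 1 array. It read 8.60, 8.49, 8.11, 10.46, 8.47, 8.53 and 8.38 on wild type MCAO arrays 1 to 7, against 9.66, 9.17 and 9.46 on the wild type sham arrays, so array 4 stood above the sham arrays and the others below them. In knockout mice it read 8.37 to 8.88 after MCAO, against 9.17, 9.17 and 9.03 after sham surgery, without overlap. The change was -0.52 in knockout mice (adjusted p = 0.216) and -0.71 in wild type mice (adjusted p = 0.125), and neither was called. Without wild type MCAO array 4, which also enters the shared estimate of spread, Slco1a4 was called lower in both (adjusted p = 0.00461 in knockout and 3.85e-05 in wild type mice). That array was left out for its high value, so a deeper wild type fall and a narrower spread follow by construction.

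Abcb1a, which codes for the drug efflux pump P-glycoprotein, and Mfsd2a, the carrier of docosahexaenoic acid that also holds down vesicle transport, were called in neither genotype. Abcb1a gave -0.05 (95% interval -0.68 to 0.58) in knockout and -0.21 (-0.84 to 0.42) in wild type mice. Mfsd2a gave 0.21 (-0.14 to 0.57) and 0.13 (-0.22 to 0.49). Wild type MCAO array 4 was the highest of its group for both.

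Of the surface and caveola genes, Cav1 and Emcn rose in both genotypes. Cav1 codes for caveolin-1, the coat protein of the vesicles that cross endothelium, and is found in other cells too. It read 8.50 to 9.82 after MCAO (median 9.15), against 8.10, 7.91 and 8.11 after sham surgery in knockout mice, and 8.63 to 8.97 after MCAO (median 8.80), against 7.84, 8.38 and 7.99 after sham surgery in wild type mice. The groups did not overlap. Cav1 rose by 1.10 in knockout mice (SE 0.19, adjusted p = 0.000413) and by 0.72 in wild type mice (SE 0.19, adjusted p = 0.015), the second call being lost without wild type sham array 1 or 3.

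Emcn, the sialomucin endomucin of veins and capillaries, read 6.05 to 8.29 after MCAO (median 7.54), against 6.04, 5.54 and 6.01 after sham surgery in knockout mice, where array 7 lay just above the sham arrays. It rose by 1.40 in knockout mice (SE 0.36, adjusted p = 0.00791) and by 1.13 in wild type mice (SE 0.36, adjusted p = 0.0371). The knockout call was lost without knockout sham array 2 (adjusted p = 0.0576), and the wild type call in 6 of 20 leave-one-out fits. Plvap, the diaphragm protein that mature barrier endothelium normally lacks, was called in neither (0.19, 95% interval -0.24 to 0.62, and 0.03, -0.39 to 0.46).

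Among the transcription factors, Ets1, a factor that drives many endothelial genes and is also present in lymphocytes, rose in both genotypes. It read 7.82 to 9.02 after MCAO (median 8.40), against 7.50, 7.09 and 7.20 after sham surgery in knockout mice, and 7.68 to 8.81 after MCAO (median 8.34), against 7.43, 7.63 and 7.51 after sham surgery in wild type mice. The groups did not overlap. Ets1 rose by 1.11 in knockout mice (SE 0.24, adjusted p = 0.00222) and by 0.78 in wild type mice (SE 0.24, adjusted p = 0.0304); the second call was lost without any 1 of the 3 wild type sham arrays. A second probe set was called in knockout mice (1.52, adjusted p = 0.0009) and the other 2 in neither genotype.

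Sox17, a factor of arterial endothelium, rose by 0.88 in knockout mice (SE 0.21, adjusted p = 0.00507), without overlap, and changed by 0.33 in wild type mice (adjusted p = 0.289). Its second probe set gave 0.22 (adjusted p = 0.516) and 0.09 (adjusted p = 0.827), and the names of the sets used for Sox17, Ets1 and Egfl7 mark them as able to match more than 1 transcript or gene. Sox18, a related factor, gave 0.62 (adjusted p = 0.0871) and 0.50 (adjusted p = 0.202). Apold1, an early response gene of endothelium, rose by 1.29 in wild type mice (SE 0.39, adjusted p = 0.0298) and changed by 0.86 in knockout mice (adjusted p = 0.112). Apold1 signals were 7.99 to 10.11 after MCAO (median 8.13), against 7.06, 7.28 and 6.98 after sham surgery in wild type mice, with array 4 highest. Apold1 stayed called in wild type mice without array 4 but not without any 1 of the 3 sham arrays. In knockout mice it was called without MCAO array 7 (1.04, adjusted p = 0.0452). Array 7 was the lowest of its group for Apold1, so that rise is by construction.

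Arrays of 1 group differed from each other across the set. Knockout MCAO arrays 2, 5 and 7 were each among the 3 lowest of their 7 for 28 of the 34 genes, and array 4 was the highest for 26. The median deviation from the group's median was -0.30, -0.36 and -0.60 on arrays 2, 5 and 7, and 0.48 on array 4. Arrays 2 and 5 had the high Gapdh differences given above, and array 7 did not (-0.25). The same 3 arrays were lowest for the neutrophil gene S100a8, at 6.45, 6.12 and 5.61, where the other 4 read 8.03 to 9.09 and the knockout sham arrays 5.37, 4.97 and 5.59. The mean of a list of 9 neutrophil and monocyte genes was 5.66, 5.62 and 5.44 on these 3 arrays. It was 6.09 to 6.25 on the other 4 and 5.72, 5.63 and 5.84 on the knockout sham arrays. For Cd44, a hyaluronan receptor induced after injury, arrays 2 and 5 (10.60 and 10.77) lay among the other MCAO arrays, and array 7 was lower (8.98), against 5.99 to 6.25 on the sham arrays.

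In wild type mice MCAO array 4 was the highest of 7 for 22 of the 34 genes, with a median deviation of 0.42. It had the largest actin difference of its group (1.70) and the highest S100a8 signal (10.73, where the other 6 read 8.47 to 9.57). The part of RNA quality or of other cells in these deviations was not tested. With knockout MCAO arrays 2 and 5 left out, a choice made after seeing the data, 21 of 34 genes were called higher and 1 lower in knockout mice, Sele, Selp, Eng, Tie1 and Sox18 being added. Of all genes 13.5% were then called higher and 6.72% lower, against 16.1% and 8.9% with every array. Without array 7 the count was also 21 higher and 1 lower, where 17.0% and 8.38% of all genes were. Arrays 2, 5 and 7 were low for most of these genes, so leaving them out raises the fitted changes by construction. The added calls are therefore no test of the set. Without wild type MCAO array 4, 13 were called higher and 3 lower in wild type mice, where 8.65% and 7.16% of all genes were.

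**Figure D3:**
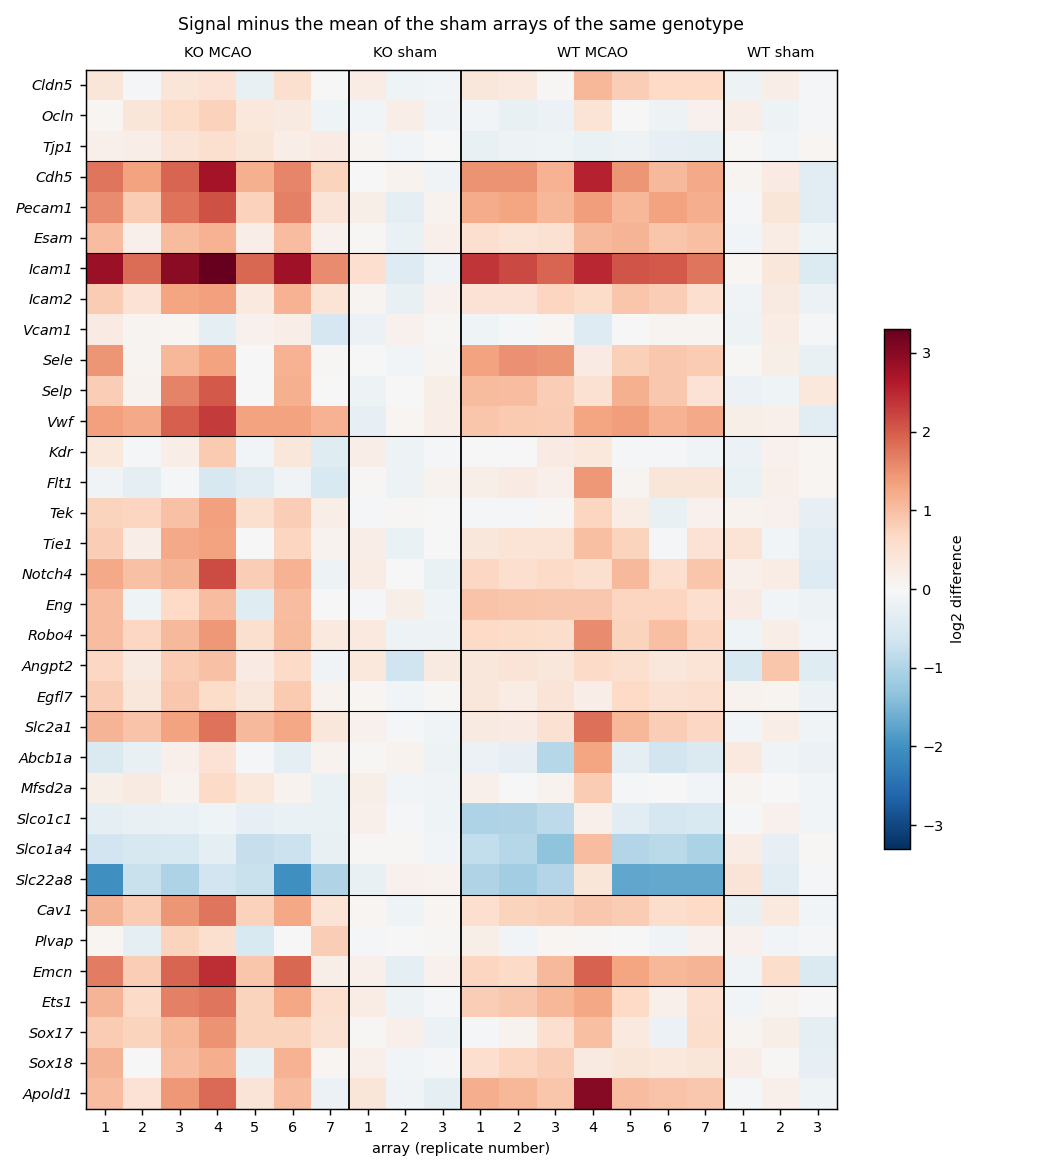
Log2 signal of each gene on each surgery array, minus the mean of the 3 sham arrays of the same genotype (red higher, blue lower); columns are arrays by replicate number and rows are genes grouped by role. The columns of knockout MCAO arrays 2, 5 and 7 are paler than those of array 4, wild type MCAO array 4 departs from its group in the transporter rows, and the Slc22a8 row is blue on all knockout MCAO arrays.

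The wild type result rested on few sham arrays. Leaving out wild type sham array 1, 2 or 3 reduced the genes called in wild type mice to 4, 10 and 4, where 7.89%, 10.2% and 9.18% of all genes were called in either direction, against 15.9% in the full fit. Icam1, Cdh5, Pecam1 and Vwf were called in all 20 fits. In knockout mice 12 of the 17 calls held in all 20 fits, and the count ranged from 13 to 22. Without knockout sham array 1, 2 or 3 it was 16, 13 and 13, where 20.3%, 13.4% and 12.8% of all genes were called, and without wild type sham array 1, 2 or 3 it was 17 each time, where 24.6%, 23.7% and 23.9% were. The wild type count was 14 without each knockout sham array, where 15.0%, 14.4% and 14.7% of all genes were called. These 12 were Icam1, Cdh5, Pecam1, Vwf, Icam2, Cav1, Ets1, Robo4, Egfl7, Slc2a1, Sox17 and Tek.

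The genotypes were also set against each other within each surgery. After MCAO 0 of 34 genes were called between knockout and wild type mice by limma, where 0.0165% of all genes were called higher and 0.0275% lower (0.044% in all). The arrays of the genotypes overlapped for all 34, where 0.247% of all genes lay wholly higher and 0.121% wholly lower in knockout mice. At an unadjusted p under 0.05 there were 4 of 34, namely Flt1 (-0.54), Cldn5 (-0.45), Tek (0.39) and Cav1 (0.35), as against 3165 of all 18193 genes (17.4%). With the actin difference as a covariate Cldn5 (-0.51, adjusted p = 0.0323) and Flt1 (-0.61, adjusted p = 0.0186) were called lower in knockout mice, where 5.42% of all genes were called in either direction. Icam1 was at 7.47 ± 0.67 in knockout and 7.76 ± 0.24 in wild type mice after MCAO (SD, n = 7 each), a difference of -0.30 with a 95% interval of -0.78 to 0.19. After sham surgery Slc2a1 was lower in all 3 knockout arrays (9.82, 9.63 and 9.55) than in the wild type arrays (10.25, 10.54 and 10.20), a difference of -0.66 (adjusted p = 0.191). Tjp1, Slc2a1, Mfsd2a, Slco1c1 and Plvap, 5 of the 34 genes, were lower without overlap in knockout sham arrays and 0 were higher, where 21.8% and 20.4% of all genes were. These 5 are named for that pattern, seen in their values.

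Companion lists of genes around these functions give the setting. In knockout mice 16.1% of all genes were called higher and 8.9% lower, and in wild type mice 8.68% and 7.27%. List counts near these shares are no result about a list. Of 8 endothelial regulators of clotting and fibrinolysis, 6 rose in knockout and 5 in wild type mice, and none fell in either by limma at an adjusted p under 0.05. The median change was 1.16 in knockout and 0.74 in wild type mice. Thbd, the thrombin receptor thrombomodulin, rose by 2.63 in knockout mice (SE 0.38, adjusted p = 5.93e-05) and by 1.99 in wild type mice (SE 0.38, adjusted p = 0.00123). Procr, the protein C receptor that works beside it, rose by 1.89 (adjusted p = 0.000399) and 2.18 (adjusted p = 0.00016). F3, tissue factor, rose by 1.14 in knockout mice and Plaur, the urokinase receptor, by 1.97 in wild type mice. Plat, tissue plasminogen activator, rose by 1.19 and 0.87.

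Of 22 further genes enriched in brain endothelium, 11 rose and 0 fell in knockout mice, where 16.1% and 8.9% of all genes did. In wild type mice 7 rose and 2 fell, where 8.68% and 7.27% of all genes did. The medians were 0.53 and 0.34. Klf4, a factor induced by flow and inflammation, rose by 2.45 in knockout mice (SE 0.36, adjusted p = 6.15e-05) and by 1.74 in wild type mice (SE 0.36, adjusted p = 0.0021). Slc16a1, a lactate carrier, rose by 1.08 and 0.65, and Nos3, the endothelial nitric oxide synthase, by 1.05 and 1.17. Mmrn2, a matrix protein of vessels, rose by 1.13 in knockout and Klf2, a flow-induced factor, by 1.52 in wild type mice.

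Signals and partners of vessels were counted in the same way. Of 17 genes of the Wnt pathway that induces the barrier, 6 rose in knockout and 1 in wild type mice and none fell by limma, where 16.1% and 8.68% of all genes rose. The median changes were 0.08 and 0.03. Among them Tspan12 (0.48) and Foxf2 (0.51) rose in knockout and Adgra2 (0.59) in wild type mice. Of 22 angiogenic ligands, receptors and targets, 5 rose and 1 fell in knockout mice, Jag1 by 0.96 and Notch1 by 0.57 upward, and 3 rose and 3 fell in wild type mice, Adm by 1.03 upward and Slit2 at -0.95. Of 11 other junction genes, 2 rose and 0 fell in knockout mice and 3 rose and 1 fell in wild type mice. Of all genes 8.9% fell in knockout and 7.27% in wild type mice. The 2 of 11 is near the 16.1% of all genes, so it is no result about junctions. Ctnna1, the catenin that ties cadherins to actin, rose in both (0.96 and 0.71), and Cdh2, the cadherin of neurons and pericytes, fell by 0.63 in wild type mice.

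Of 11 partners of the adhesion molecules, 3 rose and 4 fell in knockout mice, where 16.1% and 8.9% of all genes did. In wild type mice 2 rose and 1 fell, where 8.68% and 7.27% of all genes did. Which cells of the hemisphere carried these changes was not tested. Cd44 rose by 4.35 in knockout mice (SE 0.29, adjusted p = 7.44e-09) and by 3.72 in wild type mice (SE 0.29, adjusted p = 7.22e-08). Itgb2, the integrin chain that binds Icam1, rose by 1.62 and 1.49. Selplg, the ligand of P-selectin, fell, at -0.97 and -1.12.

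Markers of other cells were counted too. Of all genes 16.1% rose and 8.9% fell in knockout mice, and 8.68% and 7.27% in wild type mice. Of 9 neutrophil and monocyte genes, 2 rose and 3 fell in knockout mice, and 2 rose and 0 fell in wild type mice. S100a8 rose by 2.10 and 3.76, and does not stand for the list in knockout mice, where more genes fell than rose. The list averaged 5.921 after MCAO and 5.727 after sham surgery in knockout mice, and 6.451 and 5.445 in wild type mice. The mean level of this list was 5.44 to 6.25 in knockout MCAO, 5.63 to 5.84 in knockout sham, 6.21 to 7.14 in wild type MCAO and 5.43 to 5.47 in wild type sham arrays. Of 7 platelet genes 1 rose in knockout and 2 in wild type mice, Pf4 in both (1.66 and 1.83), and their mean level was 6.15 to 6.85, 6.42 to 6.45, 6.60 to 7.36 and 6.21 to 6.43 in the same order of groups. Pecam1, Selp and Vwf are also platelet or leukocyte genes in part.

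Of 13 genes of pericytes and vascular muscle, 4 rose and 1 fell in knockout mice and 3 rose and 1 fell in wild type mice, Pdgfrb by 1.46 in knockout mice and Tagln by 0.73 and 1.05. In wild type mice Pdgfrb read 8.76 to 9.45 after MCAO, against 8.41, 8.78 and 8.26 after sham surgery. Of 9 genes of meningeal fibroblasts, 5 rose in knockout and 1 in wild type mice, Dcn in both (1.21 and 1.96), and their mean level was 7.50 to 8.80 in knockout MCAO, 7.48 to 7.68 in knockout sham, 7.62 to 8.66 in wild type MCAO and 7.59 to 7.72 in wild type sham arrays. Of 7 microglia genes 4 fell in each genotype, P2ry12 at -1.62 and -2.71. Of 7 astrocyte genes 2 rose in each, Gfap by 2.13 and 1.95, and of 7 neuron genes 1 fell in knockout and 2 in wild type mice. Of 3 measured red cell genes 0 were called in either genotype. The shares of all genes beside these lists were 16.1% higher and 8.9% lower in knockout mice, and 8.68% and 7.27% in wild type mice. The part of these cells in the endothelial changes was not tested.

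In naive brain the knockout and wild type arrays differed in general properties of their values. Pairs of knockout naive arrays shared between 1743 and 2876 exactly equal values, pairs of wild type naive arrays between 1 and 48, and all 56 pairs of a knockout with a wild type array shared 0, whereas knockout and wild type surgery arrays shared 2 to 26. The median signal was 7.04 ± 0.01 on knockout and 6.89 ± 0.02 on wild type naive arrays (SD, n = 7 and 8), and the lowest signals averaged 3.23 and 3.58. Wild type naive array 6 also stood apart, with correlations of at most 0.82 to its group and a Gapdh difference of 3.51. Whether the knockout and wild type naive arrays were normalized together is not given in the sources used here, and the part of these general differences in the values of single genes was not tested.

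With that limit, 5 of 34 genes were called higher in knockout naive brain (where 6.37% of all genes were) and 2 lower (where 8.31% were, 14.7% in all). The genotypes did not overlap for 9 genes higher and 2 lower in knockout mice, where 5.54% and 5.26% of all genes did not. Notch4 read 7.24 to 7.46 in knockout naive arrays (median 7.35), against 5.55 to 6.28 in wild type naive arrays (median 6.06), a difference of 1.35 (SE 0.10, adjusted p = 1.93e-06). The probe sets of Notch4 disagreed, since another was called lower in knockout mice (-0.54, adjusted p = 0.0015) and the remaining one was at 0.0038 (adjusted p = 0.987). Emcn and Slc22a8 were each higher by 0.88 (adjusted p = 0.000354 and 0.00566), Flt1 by 0.57 (adjusted p = 0.038) and Kdr by 0.48 (adjusted p = 0.000485). The further probe set of Slc22a8 (0.22, adjusted p = 0.483) and the other 3 of Flt1 (-0.15 to 0.20) were not called. Selp was at -0.50 (adjusted p = 0.00568) and Sele at -0.43 (adjusted p = 0.00363). Sele was dim, averaging 4.16 in knockout and 4.59 in wild type naive arrays, whose lowest signals averaged 3.23 and 3.58. The part of that difference in lowest signals was not tested. Repeated quantile normalization ended the naive calls of Sele (-0.16, adjusted p = 0.107), Flt1 (0.42, adjusted p = 0.0772) and Kdr (0.27, adjusted p = 0.218). Slc22a8 read 9.05 to 9.11 on all knockout naive arrays, against 7.00 to 8.76 on the wild type naive arrays.

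Without wild type naive array 6, 18 of the 34 genes were called higher and 2 lower, where 36.5% of all genes were called in either direction. Under centring on the median 3 were higher and 3 lower, with Flt1 and Kdr no longer called and Icam1 at -0.34 (adjusted p = 0.00998). The calls over all genes were then 196 higher and 2487 lower, against 1158 and 1511 as deposited. The probe sets of Vcam1 and Flt1 used in the naive set differ from those of the surgery set.

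**Figure D4:**
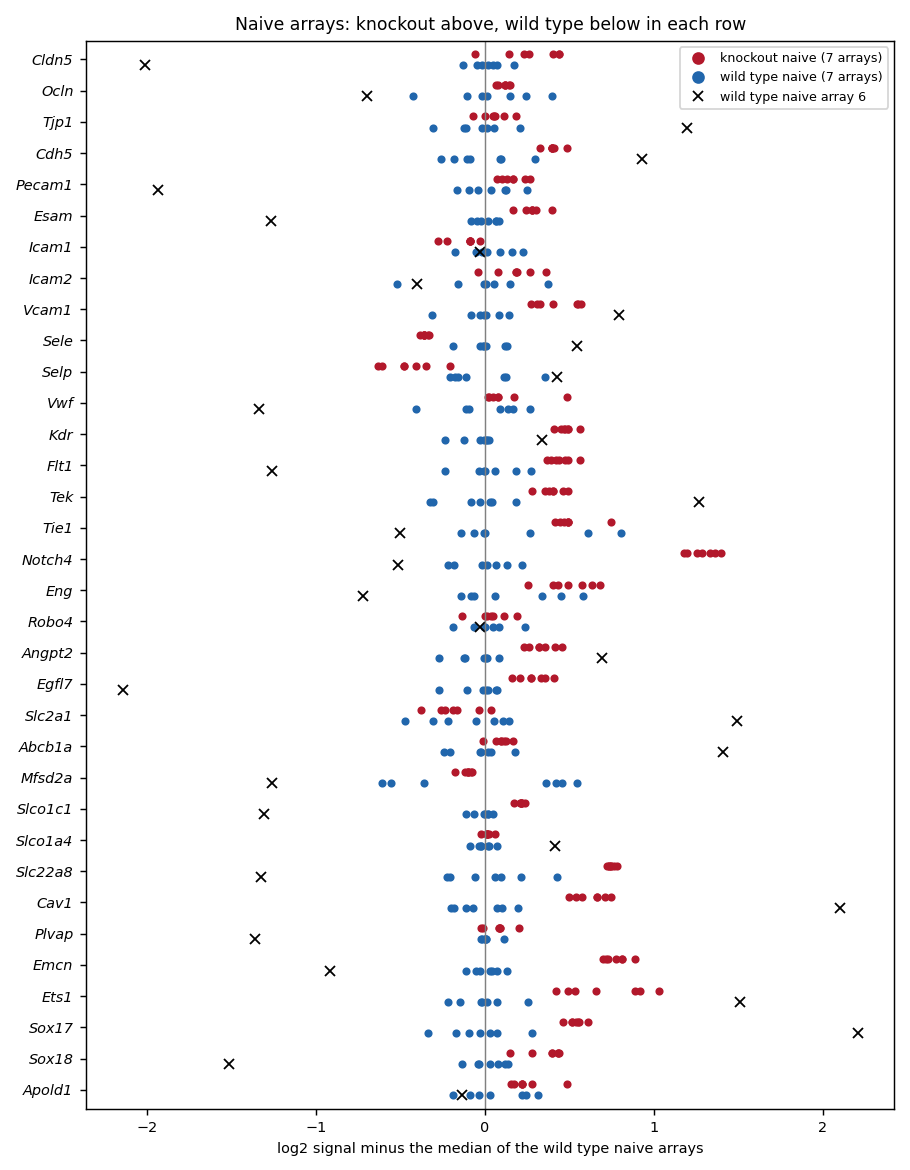
Log2 signal of each gene on the naive arrays, minus the median of the 8 wild type naive arrays; knockout arrays (red) lie above wild type arrays (blue) in each row, and the cross is wild type naive array 6. The cross lies far from the other wild type arrays in most rows, and Notch4, shown by its brightest probe set, has the widest gap between the genotypes, while its other probe sets read -0.54 and 0.0038.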

How the data were processed

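RNA of 35 mouse brain hemispheres was measured on 20 surgery and 15 naive Affymetrix arrays, labelled by in vitro transcription per the labels' protocols. The deposited values are log2 signals, 1 per probe set, made with RMA per the submitters' processing notes, version not given; per the series' design text the naive arrays were normalized apart. The scanner files were not used here, so background and saturation of single probes are not known.

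Of 45101 probe sets, 34945 had 1 gene symbol in the platform annotation, 932 had several, 9160 had none and 64 were controls; 34741 matched RefSeq by Entrez ID. For each of 18193 genes the brightest probe set on average was kept. In R 4.3.3 with limma 3.58.1, 1 fit covered the surgery arrays and 1 the naive arrays, with lmFit, contrasts.fit and eBayes. The scripts were tested on simulated data. All 34 genes are accounted for, each called one is named, and of each list at most the 4 called genes with the smallest p. Members and lists were chosen with earlier results of these data known. Values of the disrupted receptor gene are not given here.

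Alternatives were another variance prior, the mean of all probe sets, a filter on dim genes, centring, repeated quantile normalization, array weights, fits to the compared arrays alone, stricter thresholds, a replicate block, 3 prime minus 5 prime covariates and leaving out each array. Leaving out knockout MCAO arrays 2 and 5, and wild type naive array 6 with quantile normalization, were added after the data were seen.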

Additional observations from a re-analysis of the deposited data

Results flagged for a closer look

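Single values far from the rest of their group, by Dixon's test on groups of 7 or 8 arrays, were found in 37 of 136 cases tested, where chance flags about 1 in 20. Wild type naive array 6 gave 24 of them. It was far above its group for Tjp1 (11.74), Cdh5 (7.85), Vcam1 (9.37), Sele (5.07), Kdr (8.20), Tek (8.995), Angpt2 (6.95), Slc2a1 (12.10), Abcb1a (9.89), Slco1a4 (9.64), Cav1 (10.21), Ets1 (8.61) and Sox17 (9.63). It was far below its group for Cldn5 (7.73), Pecam1 (5.47), Esam (7.66), Vwf (6.18), Flt1 (7.60), Egfl7 (6.78), Slco1c1 (9.45), Slc22a8 (7.00), Plvap (7.55), Emcn (5.41) and Sox18 (6.66).

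Wild type MCAO array 4 gave 8, all on the high side: Cdh5 (8.82), Flt1 (10.24), Robo4 (7.61), Abcb1a (8.88), Mfsd2a (9.35), Slco1a4 (10.46), Slc22a8 (8.36) and Apold1 (10.11). Knockout naive array 4 was high for Vwf (8.00), Tie1 (7.22) and Apold1 (7.64), and knockout naive array 7 was low for Mfsd2a (8.73) and Slco1c1 (10.93).

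The change of Tjp1 after MCAO differed between the genotypes by 0.53 in the test of the difference itself (adjusted p = 0.0186). All 7 knockout MCAO arrays were above the knockout sham arrays, where 15.6% of all genes were. All 7 wild type MCAO arrays were below the wild type sham arrays, where 9.26% of all genes were. Knockout relative to wild type was -0.41 after sham surgery and 0.12 after MCAO. The call was lost after repeated quantile normalization (adjusted p = 0.169), with the actin covariate (0.0624), and without any of several single sham arrays.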

How the results depend on the processing

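None of the 34 genes' called changes reversed sign under any alternative run. Counts of genes called follow, against 17 in knockout mice, 17 in wild type mice, 1 for the difference of changes, 0 between genotypes after MCAO, 1 between sham groups and 7 in naive brain. Counts that moved little are mostly left out, so an unlisted count is not an unchanged one. At an adjusted p under 0.01 there were 13 in knockout mice, 4 in wild type mice, 0 for the difference and 0 between sham groups. Of all genes 11.9%, 7.07%, 0.0% and 0.033% were then called. At 2-fold or more there were 10 in knockout mice, 8 in wild type mice, 0 for the difference, 0 between sham groups and 1 in naive brain. In the same order 2.67%, 2.86%, 0.423%, 0.077% and 0.154% of all genes were called. With dim genes left out there were 9 of 20 in knockout mice, 11 of 20 in wild type mice and 2 of 17 in naive brain, fewer genes being tested. Of all genes then tested 31.1%, 22.5% and 1.79% were called. Repeated quantile normalization gave 14 in knockout mice, 13 in wild type mice, 0 for the difference, 0 between sham groups and 4 in naive brain. Of all genes 21.7%, 14.6%, 0.929%, 0.39% and 8.32% were called. Array weights gave 24 in knockout mice, 21 in wild type mice, 3 for the difference, 5 between sham groups and 25 in naive brain. Of all genes 39.8%, 24.6%, 22.5%, 32.4% and 42.0% were called. The actin covariate gave 0 for the difference, 2 after MCAO, 0 between sham groups and 20 in naive brain, and the Gapdh covariate 20 in naive brain, where 34.3% and 36.7% of all genes were called in naive brain. With the actin covariate 0.044% of all genes were called for the difference, 5.42% after MCAO and 0.033% between sham groups. Fits to the compared arrays alone gave 15 higher and 2 lower in knockout mice, 17 and 0 in wild type mice, and 2 calls between sham groups. Of all genes 24.4%, 14.7% and 19.0% were called. In wild type mice Slc22a8 (adjusted p = 0.0638), Slco1c1 (0.0869) and Cldn5 (0.0607) were then no longer called, and Notch4, Selp and Sox18 were. Quantile normalization without wild type naive array 6, added after the data were seen, gave 18 in naive brain, where 23.5% of all genes were called. Leaving out 1 array gave 13 to 22 in knockout mice, 4 to 20 in wild type mice, 0 to 2 for the difference, 0 after MCAO throughout, 0 to 1 between sham groups and 6 to 20 in naive brain. Shares of all genes are not set beside these ranges, so the ranges do not speak for the set alone. The cause of these moves was not tested.

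The numbers were not taken to pair arrays. Of same-numbered pairs of surgery arrays 5 of 22 had a correlation of deviations over 0.1 (median -0.01). Of differently numbered pairs 27 of 120 did (median 0.02). In the naive set 5 of 7 same-numbered pairs did (median 0.14), beside 16 of 49 differently numbered pairs (median -0.02). With so few naive pairs, pairing there is not settled. With the replicate number as a block, 17 genes were called higher and 1 lower in knockout mice, 10 and 3 in wild type mice, 1 and 0 for the difference, 0 and 0 after MCAO, 0 and 1 between sham groups and 4 and 2 in naive brain. The share of all genes is not set beside these block counts. With 3 sham arrays per genotype, the number of arrays limits the precision.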
